A study of Mus musculus with 6 samples.

Results

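Plakins are large cytolinker proteins, which tie the cell's filament systems to each other and to its junctions. The 6 genes described here encode periplakin (Ppl), envoplakin (Evpl), desmoplakin (Dsp), plectin (Plec), dystonin (Dst) and the microtubule-actin crosslinking factor Macf1. They were picked by symbol from a table of 46983 annotated features, 1 row each, and the family was chosen because Ppl was higher and Macf1 lower in the mutant cells. The difference between the genotypes is therefore given for these genes as a description, without a test.

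The cells were oligodendrocytes, the glia that wrap axons of the brain and spinal cord in myelin, taken freshly from mouse brain and not cultured. Of the 6 libraries, 3 are labelled WT, the controls, and 3 Qk-KO, from mice carrying Plp-CreERT2 and homozygous floxed Qk alleles (genotype label Qk-/-). The mice were FvB/C57BL6 hybrids, both groups received tamoxifen at 8 weeks of age, and brains were collected 4 days later. The Plp promoter limits recombination to cells in which it is active, so other cells in the preparation keep Qk. The labels do not say which alleles the controls carry, nor whether every library came from its own mouse, so standard errors and p-values refer to the spread among these libraries, which may be technical.

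As background, plakins share a plakin domain, and most end in repeat modules that hold intermediate filaments. Desmoplakin anchors those filaments at desmosomes, and envoplakin and periplakin pair under the membrane of stratified epithelia, where they join the cornified envelope. Plectin crosslinks intermediate filaments with actin and with integrin and dystroglycan adhesions. Dystonin and Macf1 are spectraplakins, which carry an actin-binding part, spectrin repeats and a microtubule-binding end. Quaking, the protein made from Qk, binds RNA at ACUAAC or ACUAAU and acts on splicing and RNA stability in oligodendrocytes.

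The libraries were uneven. The cytosolic and mitochondrial ribosomal RNA features held 59.8% to 64.8% of the signal in all 3 WT libraries and in Qk-KO replicate 1, but 2.23% and 1.88% in Qk-KO replicates 2 and 3. Outside those features, approximate depths were 8.70 to 13.1 M (mega) reads in the former 4 libraries against 77.1 and 70.0 M reads in the latter. Qk itself overlapped between the groups (log2 values of 15.31 to 15.67 in WT and 15.30 to 16.10 in Qk-KO). One value per gene separates neither floxed exons from the others nor recombined cells from the rest. The gene's value is therefore no check of the labels, and why it was not lower was not tested. The oligodendrocyte markers were abundant in every library. The 10 listed genes summed to 25738 to 31561 CPM in WT and 32678 to 41700 in Qk-KO. Of them 6 were called higher in Qk-KO and 0 lower, against 13.8% higher and 14.8% lower over all tested features. CPM here are back-transformed log2 values scaled to a common total outside the ribosomal features. They are not read counts, and genes with few reads are drawn towards their mean. Markers of other cell types moved with the genotype and are given beside the results they touch.

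The 6 genes lie on 6 chromosomes of mm10. Ppl (ENSMUSG00000039457.3) spans chr16:5086291-5132421 on the minus strand, Evpl (ENSMUSG00000034282.3) chr11:116220559-116238077 on the minus strand and Dsp (ENSMUSG00000054889.9) chr13:38151294-38198577 on the plus strand. Plec (ENSMUSG00000022565.15) spans chr15:76170974-76232574 on the minus strand, Dst (ENSMUSG00000026131.17) chr1:33908225-34308661 on the plus strand and Macf1 (ENSMUSG00000028649.17) chr4:123349633-123684360 on the minus strand. Their longest coding transcripts in GENCODE M21 run from 6217 bases in 22 exons for Ppl to 23495 bases in 98 exons for Macf1. Exons of other genes cover at most 5.17% of the exonic bases of any of them, the largest being those of Gm10129 on the opposite strand of Dsp. One value per gene does not separate the isoforms of Dst, Macf1 and Plec, which are many.

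The members differed in how often the quaking hexamer occurs in the transcript. The letters ACTAAC and ACTAAT were searched on the RNA strand of the longest coding transcript of each gene. A match that starts on the last AC of ACTAAC shares those bases with it and is counted as well, in these genes and in the background. Ppl, Evpl and Dsp hold 0 matches, although 71.4%, 71.7% and 88.0% of the mouse coding transcripts within 10% of their lengths hold at least 1. Macf1 holds 5 matches, Plec 4 and Dst 2, or 0.21, 0.26 and 0.086 per kb, against 0.24 per kb over the longest coding transcripts of 21901 genes. Of the Plec matches 3 lie in the 3′ UTR, of the Macf1 matches 1, and of the Dst matches 0. A match is a description of the letters and not a binding site, and a missing match says nothing of introns or of other motifs. The 4 UTR matches and the 2 coding matches of Dst are shown 5′ to 3′ in 30 bases of transcript, with the hexamer in capitals, because they mark where these long messages carry it.
Plec, chr15:76172008-76172013: caaaaagaccagACTAACacattaatatat
Plec, chr15:76171075-76171080: tttgcatgttccACTAACcttgagctggtg
Plec, chr15:76171033-76171038: gccaggcagaacACTAACctgaccatgggc
Macf1, chr4:123350184-123350189: aactgatctgtaACTAACtgtccaacccag
Dst, exon 17, chr1:34164136-34164141: gtaacccgcgcaACTAACgagcttatctgg
Dst, exon 49, chr1:34213016-34213021: gtgtttgagaaaACTAATaacttgtcaagg
The coordinates are those of the 6 capital bases on mm10. The Plec and Macf1 matches are read from the minus strand and the Dst matches from the plus strand.

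Ppl was the plakin that differed most. Its regularized log2 values, which are scaled for depth and shrunken for genes with few reads, were 6.68, 5.92 and 6.55 in WT replicates 1, 2 and 3. In Qk-KO replicates 1, 2 and 3 they were 9.48, 8.95 and 8.88. The groups did not overlap, and the lowest Qk-KO library lay far above the highest WT library. The change was 2.72 ± 0.25 (SE, n = 3 per group), a 6.59-fold higher level, and it ranked 10th among the rises of the 15153 features tested. In CPM the level was 5.23, 2.90 and 4.83 in WT against 33.7, 26.6 and 25.5 in Qk-KO. The approximate reads behind it were 29 to 52 in the WT libraries and 441 to 2053 in the Qk-KO libraries, so the WT values carry most of the counting error. Both the CPM and these reads were taken back from the shrunken values, so they keep the shrinkage and are not observed counts. The authors' deposited table gives a log2 fold change of 3.60 ± 0.37 (SE) for Ppl, larger than the difference of the shrunken values.

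The rise of Ppl was not confined to the libraries with little ribosomal RNA. Qk-KO replicate 1, whose ribosomal share and depth were near those of WT, lay 3.10 above the WT mean, and replicates 2 and 3 lay 2.57 and 2.50 above it. WT replicate 2 was the lowest library, and without it the change was 2.49. Scaled by library size alone, ribosomal reads included, the change was 3.78.

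Evpl, which encodes the usual partner of periplakin in epithelia, was barely detected. Its log2 values were 3.80, 3.28 and 3.61 in WT against 3.41, 3.42 and 3.49 in Qk-KO, so the groups overlapped. Approximate reads, taken back from the shrunken values, were 5 to 7 in WT and 7, 44 and 42 in Qk-KO replicates 1, 2 and 3. For a gene this low the shrinkage draws each library to the gene's mean, so these figures largely restate depth. With a mean normalized count of 12.4 it was below the minimum of 20 for the test across genes. The change of -0.12 ± 0.15 (SE) comes from a fit without that filter. The authors' deposited table gives -0.58 ± 0.69 (SE), and scaling by library size alone turned the sign (0.93). Ppl therefore stood far above Evpl in each library, by levels per kb of exon of 8.78 to 14.9 against 1.52 to 2.19 in WT and 68.6 to 104 against 1.66 to 1.76 in Qk-KO.

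Dsp, the desmosomal member, overlapped between the groups. Its log2 values were 7.79, 7.76 and 8.19 in WT against 7.43, 7.78 and 7.90 in Qk-KO, a change of -0.21 ± 0.19 (SE, n = 3 per group). Qk-KO replicate 1 was the lowest library and WT replicate 3 the highest, and without Qk-KO replicate 1 the change was -0.07. Scaled by library size alone the sign turned (0.85).

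**Figure D1:**
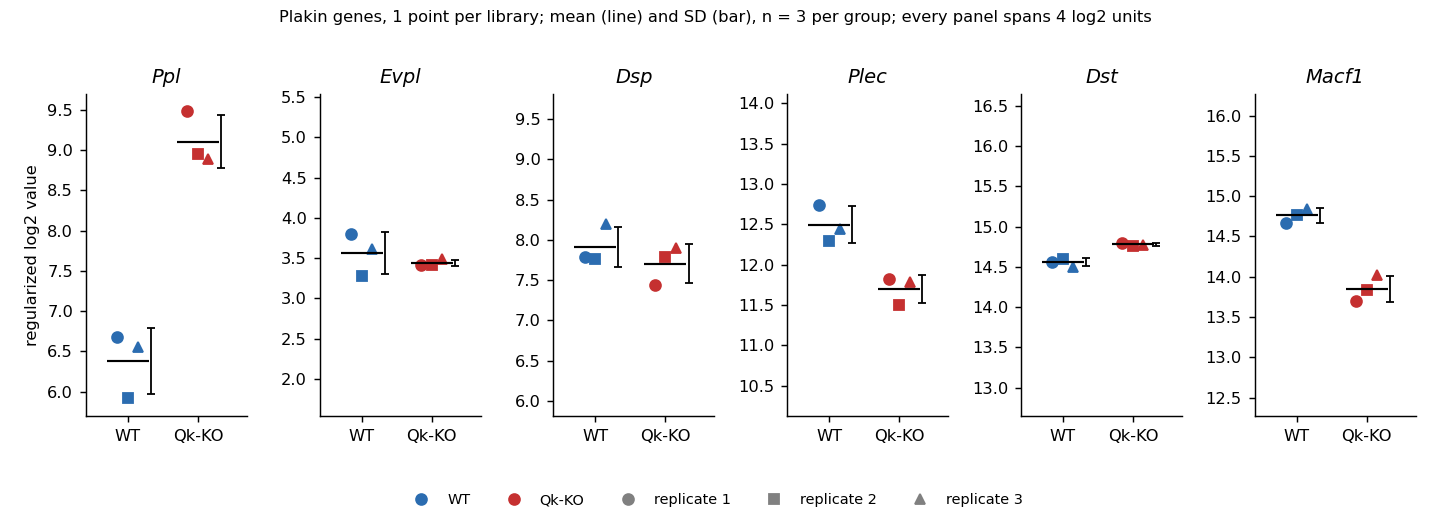
Regularized log2 value (vertical axis) of each plakin gene in 3 WT libraries (blue) and 3 Qk-KO libraries (red), with symbols for the replicate, a line for the group mean and a bar for the SD; every panel spans 4 log2 units. Ppl lies at 5.92 to 6.68 in WT and 8.88 to 9.48 in Qk-KO, and Evpl and Dsp overlap. Plec and Macf1 lie lower in Qk-KO as the authors scaled the values, but not by library size alone, ribosomal reads included.

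Plec, the plakin that binds the widest range of filaments and adhesions, was lower in Qk-KO as the authors scaled the values. It stood at 12.75, 12.30 and 12.45 in WT against 11.82, 11.50 and 11.78 in Qk-KO, with no overlap. The change was -0.80 ± 0.15 (SE, n = 3 per group), a 1.74-fold lower level. Of the changes of all tested features 9.52% lay below that of Plec. In CPM, which leave out the ribosomal features, Plec stood at 350, 241 and 287 in WT against 171, 156 and 190 in Qk-KO. The change lay between -0.67 and -0.90 when any 1 library was left out. It was 0.26 when libraries were scaled by size alone, ribosomal reads included, where its sign turned.

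Macf1 gave a mean normalized count of 21692, against 397 for Ppl, and was lower in every Qk-KO library as the authors scaled the values. Its log2 values were 14.67, 14.77 and 14.85 in WT against 13.70, 13.83 and 14.02 in Qk-KO, with no overlap. The change was -0.91 ± 0.15 (SE, n = 3 per group), a 1.88-fold lower level. Of the changes of all tested features 7.65% lay below that of Macf1. In CPM Macf1 stood at 1326, 1337 and 1513 in WT against 628, 787 and 898 in Qk-KO. Qk-KO replicate 1 was the lowest, at 1.06 below the WT mean, and without it the change was -0.83. With library size alone the sign turned (0.15).

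Dst, the other spectraplakin, did not follow Macf1. Its log2 values were 14.56, 14.60 and 14.50 in WT against 14.80, 14.76 and 14.77 in Qk-KO, the narrowest spread of any member. The libraries did not overlap, but the change was only 0.22 ± 0.14 (SE, n = 3 per group), a 1.17-fold higher level. The standard error is borrowed in part from other genes of like level. The SD between libraries of Dst itself was 0.05 in WT and 0.02 in Qk-KO. By library size alone the change was 1.28.

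Among all tested features 28.6% were called between the genotypes (limma, Benjamini-Hochberg adjusted p under 0.05), and in 46.3% the groups did not overlap. Of the 5 plakin genes tested 3 were called, Ppl higher and Plec and Macf1 lower, against 13.8% higher and 14.8% lower over all features. In 4 of the 5 the groups did not overlap. Since this contrast chose the family, nothing is read from these counts. The median change of all tested features was 0.03, so the values above are close to changes relative to the median gene.

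Differences between 2 genes inside 1 library are unchanged when all log2 values of that library are shifted together. The shrinkage of each gene stays in them, most for genes with few reads such as Ppl in WT. Dst minus Macf1 was -0.11, -0.17 and -0.34 in WT against 1.10, 0.93 and 0.75 in Qk-KO. Not divided by length, the log2 value of Macf1 was the larger in each WT library and that of Dst in each Qk-KO library. The group means of the difference lay 1.13 log2 units apart. Plec minus Macf1, in contrast, was -1.92, -2.47 and -2.40 in WT against -1.88, -2.34 and -2.24 in Qk-KO, so the groups overlapped in this difference. Ppl minus Dsp went from -1.10, -1.84 and -1.64 in WT to 2.05, 1.17 and 0.99 in Qk-KO.

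**Figure D2:**
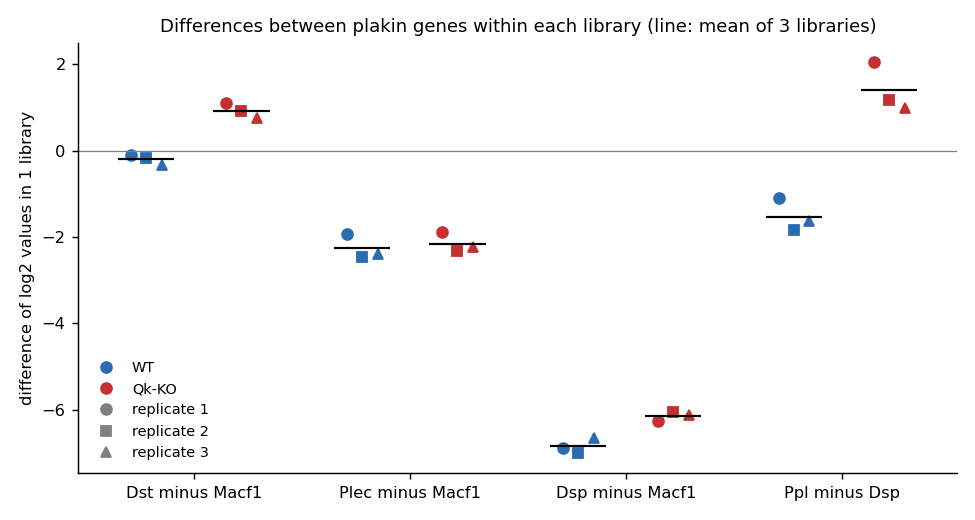
Difference of log2 values between 2 plakin genes in the same library (vertical axis) for 4 pairs, with blue points for WT and red points for Qk-KO, 1 point per library and a line for the mean of 3. Dst minus Macf1 lies below 0 in the WT libraries and above 0 in the Qk-KO libraries, while Plec minus Macf1 overlaps at about -1.88 to -2.47.

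Per kb of exon, the order of the plakins changed at 2 places. In each WT library it was Macf1, Dst, Plec, Dsp, Ppl and Evpl from high to low. In each Qk-KO library it was Dst, Macf1, Plec, Ppl, Dsp and Evpl. The mean log2 levels per kb in WT were 9.79 ± 0.09 for Macf1, 9.19 ± 0.05 for Dst and 8.32 ± 0.23 for Plec (SD, n = 3). Dsp and Ppl were much lower, at 4.64 ± 0.24 and 3.60 ± 0.41, and Evpl stood at 0.89 ± 0.27. In Qk-KO the levels were 9.41 ± 0.02 for Dst, 8.88 ± 0.16 for Macf1, 7.52 ± 0.18 for Plec, 6.32 ± 0.33 for Ppl, 4.43 ± 0.24 for Dsp and 0.76 ± 0.04 for Evpl. No neighbours in either order overlapped within a group. The order was the same in each library with the longest coding transcript as the length.

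As shares of the summed plakin level per kb, Macf1 made up 48.3% ± 2.8 in WT and 32.7% ± 3.0 in Qk-KO (SD, n = 3). Dst made up 32.0% ± 1.6 and 47.3% ± 1.6, and Plec 17.6% ± 2.8 and 12.8% ± 1.2. Ppl made up 0.811%, 0.487% and 0.734% in WT against 7.21%, 5.14% and 4.57% in Qk-KO. Even at its highest, Ppl thus remained a minor part of the plakin messages, behind the spectraplakins and Plec.

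**Figure D3:**
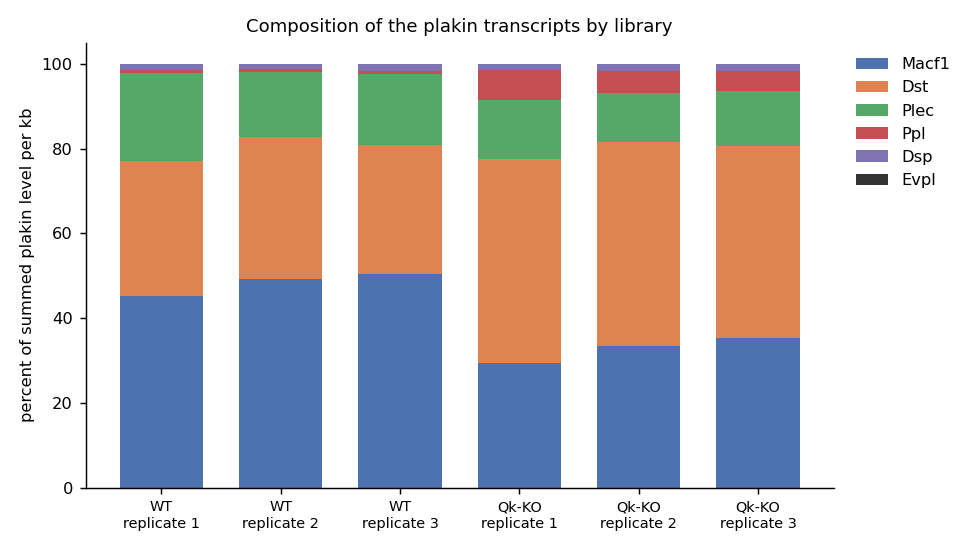
Percent of the summed plakin level per kb of exon (vertical axis) held by each gene in each of the 6 libraries, as stacked bars from 0 to 100. Macf1 is the largest share in WT (45.2% to 50.5%) and Dst in Qk-KO (45.4% to 48.3%), and Ppl grows from under 1% to 4.57% to 7.21%.

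These are bulk libraries, in which fewer cells of a type and less RNA per cell cannot be told apart. The marker counts stand beside 13.8% called higher and 14.8% called lower over all tested features. Astrocyte markers, 9 of 10 of which were called lower, summed to 6161 to 7209 CPM in WT and 1045 to 1613 in Qk-KO. The remaining astrocyte marker, Gfap, went the other way (0.81 ± 0.26, SE) and was not called. In Qk-KO replicate 1 alone its change was 0.25. Endothelial markers (10 of 10 lower) went from 1160 to 1750 down to 666 to 828, mural cell markers (8 of 9 tested lower) from 1149 to 1449 down to 602 to 759, and fibroblast and meningeal markers (6 of 8 lower) from 154 to 339 down to 82.2 to 98.7. As the authors scaled the values, the median changes of the astrocyte, endothelial, mural and fibroblast lists were -2.51, -0.92, -0.82 and -0.90. Scaling by library size alone, ribosomal reads included, adds 1.06 to the change of every gene. Macf1 and Plec were lower in the same libraries, and the part of these cell types in that was not tested. Microglia and phagocyte markers (4 of 10 higher, 0 lower) moved in the other direction, from 258 to 473 in WT up to 601, 706 and 2454 in Qk-KO replicates 1, 2 and 3. Ppl was higher in the same libraries, and the part of these cells in its rise was not tested. Ependymal and choroid plexus markers, which mark epithelium-like cells, were not higher in Qk-KO: 2 of 8 were called lower and 0 higher, with sums of 2609 to 3782 in WT and 1089 to 2553 in Qk-KO. Neuronal markers (2 of 10 higher, 0 lower) were low in each library, at 97.8 to 104 in WT and 122 to 232 in Qk-KO. Precursor markers (1 of 8 lower) summed to 704 to 1345 in WT and 357 to 709 in Qk-KO. The neuronal and precursor counts lay near the shares over all features, and nothing is read from them. No listed marker was at 0 over all libraries, and the lowest was Cnn1, a smooth muscle gene, at 0.787 to 0.981.

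The genes that plakins work with were counted over all features tested, beside the background shares of 13.8% higher and 14.8% lower. Intermediate filament genes were mixed. Of 15 tested members 2 rose, 2 fell and 11 were not called, with a median change of -0.04. The counts rest on single libraries: 5 rose and 3 fell when Qk-KO replicate 1 was left out, and 2 and 4 when Qk-KO replicate 3 was. Omitting Qk-KO replicate 2, WT replicate 1 or WT replicate 3 left 1 that rose and 1 that fell. Ina, which encodes the neuronal filament internexin, rose from 6.04, 6.14 and 6.59 in WT to 8.18, 8.21 and 8.20 in Qk-KO. Its change was 1.94 ± 0.18 (SE, limma adjusted p = 0.000292), and the groups did not overlap. The neurofilament genes Nefl, Nefm and Nefh did not share this rise. They stood at -0.49, -0.52 and -0.62 and were not called. Synm, the gene of synemin, rose by 0.46 ± 0.10 (0.0140). Des, desmin, fell by 0.93 ± 0.19 (0.0102) and Nes, nestin, fell by 0.64 ± 0.15 (0.0167), both as the authors scaled the values. Vim and Gfap, whose filaments plectin crosslinks in glia, were looked up after the values were known. Vim was not called (-0.14 ± 0.23, adjusted p = 0.671), nor was Gfap (0.81 ± 0.26, adjusted p = 0.0526), and their groups overlapped. Gfap was called without Qk-KO replicate 1 (1.09, limma adjusted p = 0.00578) and in the authors' deposited table (0.99, adjusted p = 0.00873), and Vim, with the other sign to Gfap, without Qk-KO replicate 3 (-0.43, adjusted p = 0.0426). When Qk-KO replicate 2, WT replicate 1 or WT replicate 3 was left out, no call remained for Synm (limma adjusted p of 0.0575, 0.0588 and 0.0587) or Nes (0.0512, 0.0521 and 0.0689).

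Among desmosome and cornified envelope genes only 6 of 20 passed the minimum level, of which 2 rose and 1 fell, with a median of 0.25. Omitting Qk-KO replicate 2, WT replicate 1 or WT replicate 3 gave counts of 1 and 0. The other members were too low to test, apart from Eppk1, another plakin-repeat gene, which is not analysed here. Kazn encodes kazrin, a protein that binds periplakin. It rose from 11.72, 12.03 and 11.80 in WT to 13.04, 12.55 and 12.46 in Qk-KO, with no overlap and a change of 0.83 ± 0.17 (SE, limma adjusted p = 0.0105). Like Ppl, Kazn was highest in Qk-KO replicate 1. Jup, plakoglobin, which joins desmosomal cadherins to desmoplakin, rose by 0.58 ± 0.13 (0.0127). Perp, a desmosomal membrane protein, fell by 0.80 ± 0.18 (0.0152) as the authors scaled the values. The same 3 omissions as for Synm ended the calls of Jup (limma adjusted p of 0.0561, 0.0582 and 0.0590) and Perp (0.0648, 0.0518 and 0.0565).

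Microtubule genes rose in 4 and fell in 1 of 20 tested members, with a median of 0.11. Leaving out 1 library moved this too: 1 rose without WT replicate 3 or Qk-KO replicate 2, 2 rose without WT replicate 1, and 4 rose and 4 fell without Qk-KO replicate 1. In 4 of the 6 omissions, those of WT replicates 1 and 2 and Qk-KO replicates 2 and 3, none fell. The microtubule-associated genes Map7 (0.82 ± 0.19, adjusted p = 0.0159), Clip2 (0.63 ± 0.13, 0.00997) and Slain1 (0.60 ± 0.15, 0.0197) rose. Clasp1 encodes a plus-end protein that binds spectraplakins, and it fell by 0.67 ± 0.18 (0.0277) as the authors scaled the values. Clasp1 was no longer called when any of Qk-KO replicates 2 and 3 and WT replicates 1 and 2 was left out (limma adjusted p of 0.0561, 0.0545, 0.0863 and 0.0592). Slain1 lost its call without Qk-KO replicate 2, WT replicate 1 or WT replicate 3 (0.0765, 0.0808 and 0.0785), and Map7 without the first or the last of these (0.0544 and 0.0597).

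Actin crosslinkers built from the same domains as the spectraplakins included 3 members that fell and 1 that rose among 17 tested, with a median of -0.10. Leaving out Qk-KO replicate 1 or WT replicate 1 gave 2 that rose, leaving out Qk-KO replicate 2 gave 0, and the number that fell stayed between 2 and 4 over the 6 omissions. Utrn, utrophin, went from 13.21, 12.72 and 13.07 in WT to 11.99, 11.90 and 11.96 in Qk-KO, a change of -1.05 ± 0.15 (SE, limma adjusted p = 0.00180). Dmd, dystrophin, had a change of -1.11 ± 0.16 (0.00182), and Sptbn1, a beta-spectrin, of -0.56 ± 0.14 (0.0230). These 3 falls held as the authors scaled the values. By library size alone the changes were 0.01, -0.05 and 0.50, and none was called. Gas2, which shares its microtubule-binding domain with the spectraplakins, rose by 0.64 ± 0.15 (0.0155). Sptbn1 lost its call when any of Qk-KO replicates 2 and 3 and WT replicates 1 and 3 was left out (limma adjusted p of 0.116, 0.0569, 0.0882 and 0.0753), and Gas2 when WT replicate 1 or Qk-KO replicate 2 was (0.0544 and 0.0793).

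Genes of hemidesmosomes, integrin and dystroglycan adhesions, where plectin docks, held the most called members of the 6 lists. Of 19 tested members 10 fell, 3 rose and 6 were not called, with a median of -0.44 as the authors scaled the values. By library size alone 0 members of this list were called lower, and Vcl stood at -0.44. Vcl, vinculin, went from 11.53, 11.53 and 11.46 in WT to 10.14, 9.97 and 9.91 in Qk-KO, a change of -1.50 ± 0.11 (SE, limma adjusted p = 0.000113). Parva, which encodes parvin, had a change of -0.99 ± 0.15 (0.00227) and Dtna, dystrobrevin, of -0.72 ± 0.11 (0.00286). Lims2, a partner of the integrin-linked kinase, rose by 0.83 ± 0.13 (0.00286). As the authors scaled the values, most of the astrocyte, endothelial and mural markers given above fell in the same libraries. The part of those cell types in this count was not tested.

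The 2 integrin subunits of the hemidesmosome, looked up after the values were known, moved in opposite directions. Itgb4, the beta subunit that binds plectin, was 11.44, 11.70 and 11.54 in WT against 12.51, 12.41 and 12.13 in Qk-KO, a change of 0.79 ± 0.14 (SE, limma adjusted p = 0.00482). Itga6, its alpha partner, was 11.05, 10.97 and 10.95 in WT against 9.75, 9.53 and 10.40 in Qk-KO, a change of -1.09 ± 0.21 (0.00709). Dag1, dystroglycan, had a change of -1.04 ± 0.18 (0.00489). Neither integrin gene overlapped between the groups. By library size alone Itga6 stood at -0.03 and Dag1 at 0.02, and neither was called.

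Nuclear envelope linkers, which connect the nucleus to the cytoskeleton partly through plectin and the spectraplakins, had 2 members lower and 0 higher of 10 tested, with a median of 0.05. Both were nesprin genes, giant spectrin-repeat relatives of the spectraplakins. Syne1 went from 12.62, 12.42 and 12.65 in WT to 11.19, 11.15 and 10.93 in Qk-KO, a change of -1.47 ± 0.12 (SE, limma adjusted p = 0.000205). Syne2 had a change of -0.72 ± 0.14 (0.00730), with the sign turned by library size alone, where Syne1 stood at -0.42 and was not called.

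The libraries of high and low ribosomal share can also be kept apart by a term in the model, which leaves Qk-KO replicate 1 as the measure of the genotype. With that term Ppl stood at 3.10, Plec at -0.68, Dst at 0.24 and Macf1 at -1.06. Clasp1, Clip2, Slain1, Dag1, Gas2, Sptbn1, Jup, Perp and Nes kept their signs but were no longer called (limma adjusted p of 0.0534 for Dag1 to 0.204 for Clasp1). The other partner genes named as called remained so, among them Ina, Kazn, Itgb4, Vcl and Syne1.

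**Figure D4:**
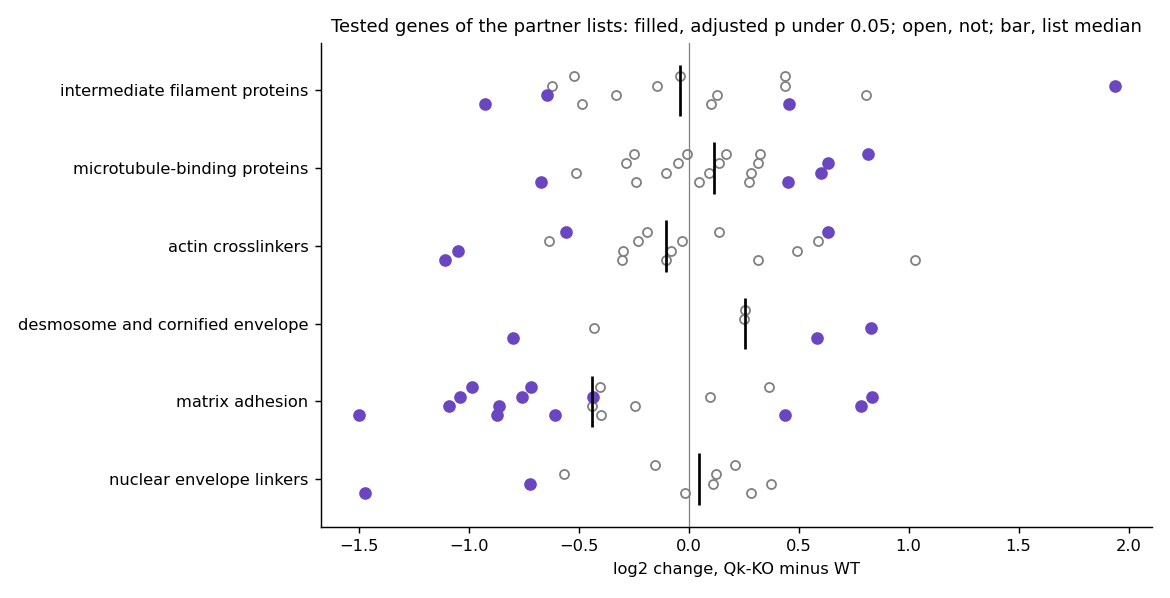
Log2 change, Qk-KO minus WT (horizontal axis), of each tested gene in 6 lists of plakin partners and relatives; filled points had a limma adjusted p under 0.05, open points did not, and a bar marks the list median. The adhesion list has 10 filled points below 0 and 3 above, as the authors scaled the values, and Ina stands alone at 1.94.

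The genes nearest to Ppl in pattern were found by the root mean square difference, over the 6 libraries, of log2 values after subtracting the WT mean. Among 11150 named genes whose mean normalized count reached 100 they were Gsn, the actin-severing protein gelsolin (difference of 0.56), Gpr176, an orphan receptor (0.57), Il1a, a cytokine (0.59), and Faah, a fatty acid amide hydrolase (0.61). In Qk-KO replicate 1 Ppl lay 3.10 above the WT mean and these genes 1.81 to 2.02, so none of the 4 shared its peak in that library. Gpr176 shared the low value of Ppl in WT replicate 2 (-0.68 and -0.47 from the WT mean).

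The genes nearest to Macf1 lay much closer to it. They were Arntl, a clock transcription factor (difference of 0.066), Aif1l, an actin-binding protein (0.068), Sntb1, a syntrophin of the dystrophin complex (0.069), Elmo2, a regulator of Rac (0.073), and Apba2, an adaptor protein (0.073). In Qk-KO replicate 1, where Macf1 was lowest, they lay at -0.93 to -1.04 from the WT mean, and 4 of the 5 were lowest there too. By library size alone these 5 genes, like Macf1, changed sign (0.17 to 0.20). This follows from their choice, since that scaling adds the same amount to every gene's change, and nothing is read from it.

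**Figure D5:**
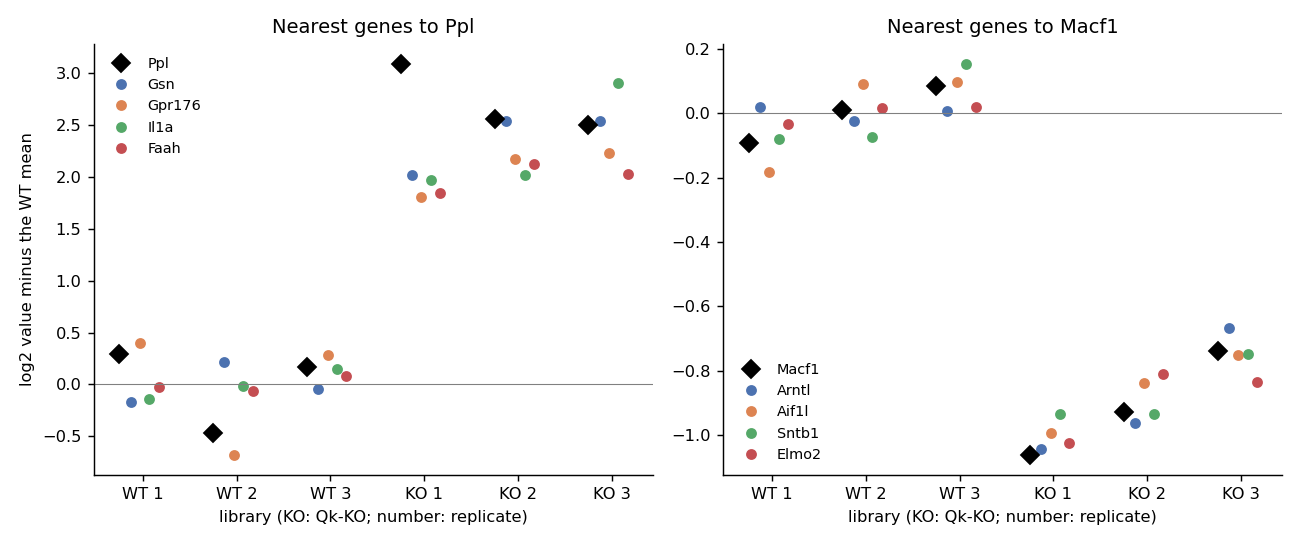
Log2 value minus the WT mean (vertical axis) in each of the 6 libraries for Ppl (left, black diamonds) and Macf1 (right, black diamonds) and the 4 genes nearest to each (coloured points). Ppl lies above its nearest genes in Qk-KO replicate 1 (3.10 against at most 2.02), and the genes nearest to Macf1 lie between -0.67 and -1.04 in the Qk-KO libraries as the authors scaled the values.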

How the data were processed

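The 6 genes and all gene lists were chosen with earlier results of these data known. FastQC, TopHat2 2.0.14, featureCounts, DESeq2 and mm10 are named in the submitters' processing notes as the authors' tools and build. No source used here gives the annotation release, strandedness or read length. For each library the authors deposited log2 values that behave like regularized log2 values. The authors' mean normalized count per feature, a signal over the 6 libraries, was deposited beside them. The deposited comparison holds the authors' log2 fold change, its error, a Wald score and a p-value, per the file headers. No values are raw reads, so limma 3.58.1 (R 4.3.3) with a mean-variance trend was fitted to the log2 values as deposited, with genotype as the only term, to the 15153 features whose mean normalized count reached 20. Benjamini-Hochberg adjusted p-values under 0.05 were called. The fit was tried on simulated data, in which only a small part of the genes was changed. The noise was independent, with the same SD for a gene in every library. The fit recovered 68% of the changes of 1 log2 unit put in and 90% of those of 2, and 7.6% of its calls fell on unchanged genes. The simulation leaves out the uneven depth and ribosomal share, so these rates do not carry over to the calls above. Size factors came from steps of 1 read in the mean normalized count (all 4125 features up to 1 were whole sums within 1e-06). Approximate reads, CPM and levels per kb came from the back-transformed log2 values and keep their shrinkage. Levels per kb used the union of GENCODE M21 exons. From each partner list the called genes with the smallest adjusted p were named, at most 4, and the 5 genes nearest in pattern to Ppl and to Macf1, of which 1 for Ppl is not reported here. Vim, Gfap, Itgb4, Itga6 and Dag1 were added after their values were seen. Alternatives were other scaling, filters, model terms, weights, leaving out each library and the authors' deposited table.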

Additional observations from a re-analysis of the deposited data

How the results depend on the processing

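Under 15 alternatives the 6 plakin genes gave 89 changes, of which 85 kept their sign. The exceptions all came from library size alone, ribosomal reads included, which adds the same amount to the change of every gene. Under it the median gene moved by 1.06 and 97.3% of calls were rises, against 48.2%. The exceptions were Macf1 at 0.15, Plec at 0.26, Dsp at 0.85 and Evpl at 0.93, with Ppl at 3.78 and Dst at 1.28. Under library size alone 2447 genes were called, 65 lower. With library type (high or low ribosomal share) in the model, and in Qk-KO replicate 1 alone against WT, changes were 3.10 for Ppl, -0.48 for Dsp and -1.06 for Macf1; 2258 genes were called (873 higher, 1385 lower) in the former and 2355 (935 and 1420) in the latter, where 1 Qk-KO library is taken to vary as the WT libraries do. The authors' deposited table gives 3.60 for Ppl, -0.58 for Evpl and -1.05 for Macf1. Leaving out 1 library gave 2370 to 5633 called genes (929 to 2840 higher, 1441 to 2793 lower), against 4330; the omissions of WT replicate 1, WT replicate 3 and Qk-KO replicate 2 gave 2663, 2568 and 2370. Library size alone also turned Des (0.13), Nes (0.41), Clasp1 (0.38), Utrn (0.0091), Dag1 (0.017), Sptbn1 (0.50), Perp (0.26), Parva (0.073), Dtna (0.34), Syne2 (0.34), Arntl (0.17), Aif1l (0.20), Sntb1 (0.19), Elmo2 (0.17) and Apba2 (0.20). Same-numbered libraries did not deviate together (correlations of 0.10, 0.0046 and 0.082), so the numbers are not taken as pairs; with the replicate block 4345 genes were called and Ppl changed by 2.72 and Macf1 by -0.91, with 0 calls of named genes lost. With library type in the model 9 named partner genes lost their call, and in Qk-KO replicate 1 alone 7. Depth limits Evpl, with approximate reads of 5 to 7 in 4 libraries as taken back from shrunken values, and the WT level of Ppl.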
